A study of Mus musculus with 6 samples.

Results

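The Hedgehog genes described here were the ligand gene Ihh, the genes Ptch1, Smo, Boc, Cdon and Hhip, whose proteins receive or hold back the signal at the cell membrane, and the genes Gli1, Gli2 and Gli3 of the transcription factors at its end. They were chosen by name, with earlier results of these data known. All 9 were found among the 55471 genes of the deposited count table. Primary osteoblasts, cells that make bone, were taken from 3-day-old C57BL/6 mice, and their poly(A) RNA was sequenced in 3 libraries per genotype. The TCKO libraries were labelled as triple knockout, from mice homozygous for floxed alleles of Tet1 (fl/fl), Tet2 (fl/fl) and Tet3 (fl/fl) that carried Prx1-Cre, in which a recombinase active in limb and skull mesenchyme acts on these genes, whose enzymes oxidise 5-methylcytosine of DNA. The WT libraries were labelled wild type, and whether the WT mice carried floxed alleles or the Cre transgene was not given in the sources used here. According to the methods of the study, cells were released from parietal bone with collagenase and Dispase II and cultured before RNA extraction, so a library could also hold cells without Cre activity and cells other than osteoblasts.

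Hedgehog ligands bind PTCH1, which in their absence holds the membrane protein SMO inactive. Once SMO is released, signalling through the primary cilium shifts the GLI proteins from repressor to activator forms. GLI1 is an activator, GLI2 acts mainly as an activator and GLI3 mainly as a repressor. BOC, CDON and GAS1 are co-receptors that help the ligand to bind, while HHIP binds the ligand and holds it back. Ptch1, Hhip and Gli1 are themselves common target genes of the signal, so their RNA is often used to read it. In the skeleton, IHH from cartilage cells is known for its role in osteoblast formation.

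The libraries were checked first. They held between 8019999 and 10177214 counts, and 3 counts, taken as the limit that a count of 0 allows, came to between 0.295 and 0.374 CPM (counts per 1000000 counts of a library). Tet1 fell in the libraries labelled TCKO (log2 fold change -0.97, adjusted p = 0.00648), Tet2 did not pass the test (-0.14, adjusted p = 0.545) and Tet3 rose (0.51, adjusted p = 0.00745). These and the later adjusted p values are from the quasi-likelihood test of edgeR, adjusted by Benjamini and Hochberg over all tested genes, and a log2 fold change of 1 is a doubling. The counts covered all exons, including those that Cre may leave in place, so the directions below depend on the library labels being right. Replicates 1 and 2 of each genotype resembled each other much more than either resembled replicate 3 (chi-square per degree of freedom of 1.69 in WT and 2.04 in TCKO, against 16.5 to 23.3 for the pairs with replicate 3). TCKO replicate 3 was also the library with the Xist and Ddx3y counts of female cells, while the other 5 had those of male cells. Summed RNA of 16 chondrocyte markers was between 6685 and 8571 CPM in WT and between 804 and 1093 CPM in TCKO, and 15 of the 16 were lower in TCKO. The 12 osteoblast markers summed to between 40820 and 43640 CPM in WT and between 22300 and 37050 CPM in TCKO, where 4 of the 9 tested were lower and 1 was higher, with log2 fold changes from -3.54 to 2.62. These counts of markers are at an adjusted p under 0.05, where 9.07% of all tested genes were higher and 8.63% lower. Of the osteoblast markers, Bglap and Dmp1, markers of late osteoblasts and osteocytes, had at most 3 counts in every library. Macrophage and osteoclast markers summed to between 173 and 224 CPM in WT and between 44.3 and 77.2 CPM in TCKO. In bulk RNA, fewer cells of a type and less RNA per cell cannot be told apart, and what part these markers had in the differences below was not tested.

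Of the 9 Hedgehog genes, 7 had enough counts to be tested, and Ihh and Gli1 had not. The limit was 1.17 CPM in 3 libraries of either genotype. Hhip met it only through its TCKO libraries, as WT replicate 1 held 1.09 CPM. Gli1 had a similar mean in WT (2.00 against 1.69 CPM) but was low in TCKO and was left out. Hhip and Gli2 rose and Ptch1 fell in the libraries labelled TCKO, at an adjusted p under 0.05. Among all 13826 tested genes, 9.07% were higher and 8.63% lower at the same threshold, and 2 of 7 higher and 1 of 7 lower are counts too small to be read as more than that background. Hhip was the 1 member that was over 2-fold higher, as were 3.16% of tested genes. The values of the genotypes did not overlap for 4 members, namely Hhip, Gli2, Ptch1 and Boc, and for 38.3% of all tested genes. The median log2 fold change was -0.16 over the 7 tested members and 0.0 over all tested genes. The 4 members that did not pass were Smo, Boc, Cdon and Gli3.

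**Figure D1:**
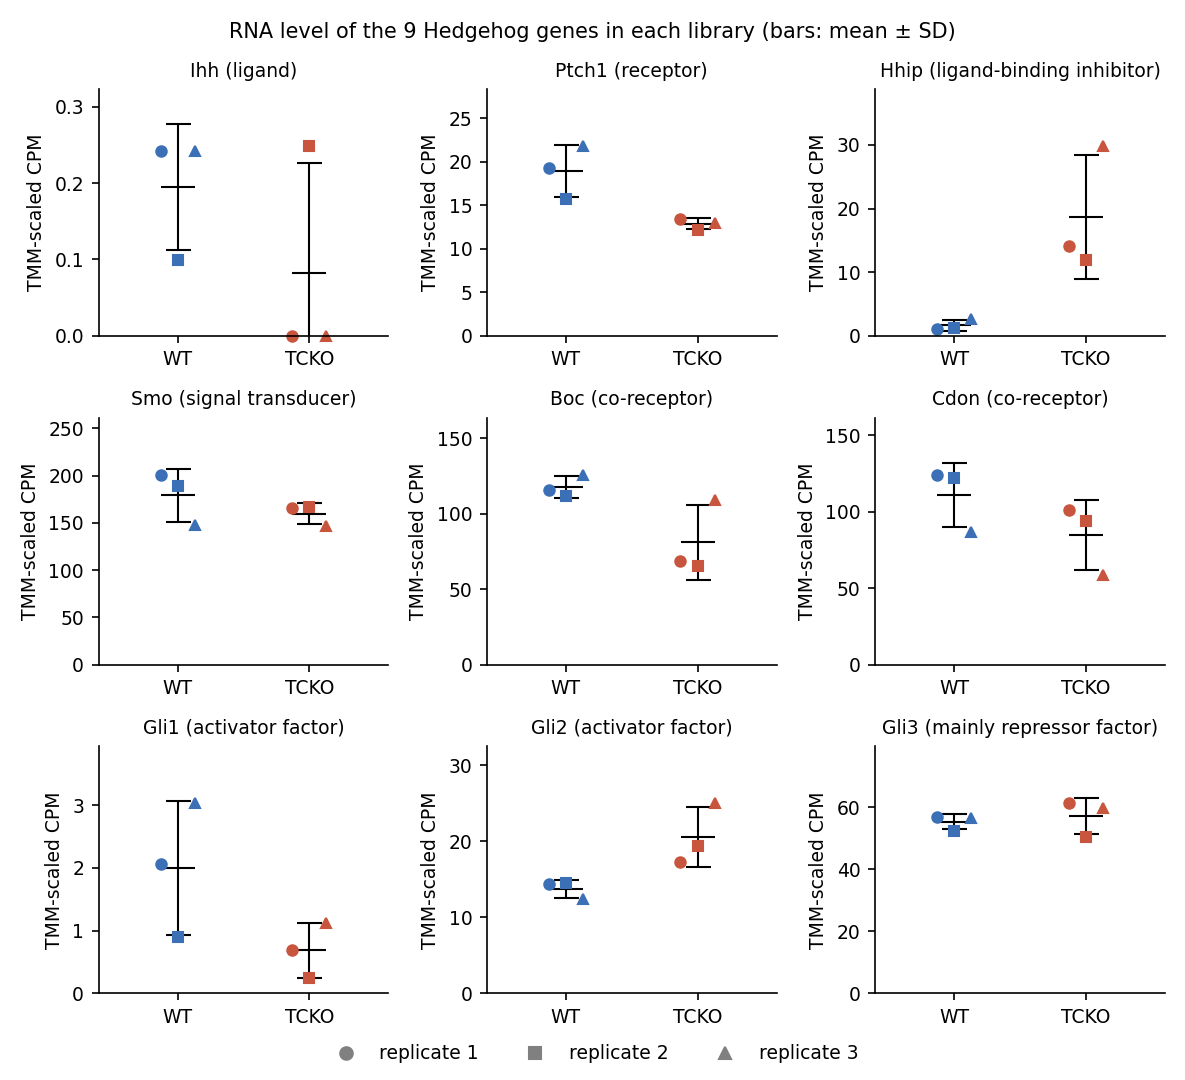
RNA level of each Hedgehog gene in CPM (vertical axes, each from 0) in the 3 WT and 3 TCKO libraries, where marker shapes give the replicate number and bars the mean ± SD (n = 3 libraries). Hhip lies between 1.09 and 2.67 CPM in WT and between 11.9 and 29.8 CPM in TCKO, Ptch1 and Boc are lower and Gli2 is higher in every TCKO library than in every WT library, and the other genes overlap between the genotypes.

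Because TET enzymes act on methylated cytosine, which in mammals lies mostly in CpG dinucleotides, the sequence before the transcription start is shown for the 3 genes that passed the test and for Smo, which did not. The sequences are the 250 bases upstream of the RefSeq start, 5′ to 3′ on the strand of the gene, from build GRCm38.p6, with CpG in capitals. No exon of the deposited annotation overlapped them. They lie at chr8:80058009-80058258 (minus strand) for Hhip, chr13:63565736-63565985 (minus strand) for Ptch1, chr1:119053620-119053869 (minus strand) for Gli2 and chr6:29735247-29735496 (plus strand) for Smo.
Hhip: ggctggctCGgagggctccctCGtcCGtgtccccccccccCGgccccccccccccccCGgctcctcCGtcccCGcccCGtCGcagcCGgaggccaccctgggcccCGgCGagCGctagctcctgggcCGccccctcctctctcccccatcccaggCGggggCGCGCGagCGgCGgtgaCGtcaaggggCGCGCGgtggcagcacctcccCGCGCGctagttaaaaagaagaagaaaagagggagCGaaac
Ptch1: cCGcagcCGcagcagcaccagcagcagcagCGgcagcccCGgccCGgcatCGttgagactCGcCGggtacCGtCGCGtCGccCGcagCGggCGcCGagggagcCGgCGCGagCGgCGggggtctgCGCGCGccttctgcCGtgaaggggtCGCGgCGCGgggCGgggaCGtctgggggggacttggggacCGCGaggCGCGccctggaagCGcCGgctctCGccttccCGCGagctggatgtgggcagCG
Gli2: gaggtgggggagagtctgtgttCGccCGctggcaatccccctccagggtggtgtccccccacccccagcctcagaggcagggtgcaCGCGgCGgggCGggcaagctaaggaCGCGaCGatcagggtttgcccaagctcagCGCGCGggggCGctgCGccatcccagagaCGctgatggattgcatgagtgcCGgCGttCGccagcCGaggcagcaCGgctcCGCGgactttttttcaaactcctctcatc
Smo: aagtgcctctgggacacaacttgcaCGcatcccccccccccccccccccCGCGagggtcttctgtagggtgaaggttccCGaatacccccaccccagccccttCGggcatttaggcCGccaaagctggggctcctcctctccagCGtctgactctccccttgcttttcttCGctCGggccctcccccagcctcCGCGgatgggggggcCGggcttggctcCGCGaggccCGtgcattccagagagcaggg

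The Ptch1 start in RefSeq lay 7863 bp inside the gene as deposited, so that window belongs to an internal start. The Cdon start lay 30948 bp inside its gene, where exons of the deposited annotation overlapped the window, and the Gli3 start 488 bp inside. CpG content was counted over 300 bases, 250 before and 50 after the start, in all 32851 promoters of the RefSeq table, which matched 7 of the 9 Hedgehog genes. The Hhip window held 30 CpG, the Gli2 window 28, the Ptch1 window 47 and the Smo window 17, and the median of all promoters was 7. As the ratio of observed to expected CpG, Hhip had 0.75, Gli2 0.83, Ptch1 1.09 and Smo 0.50, against a median of 0.38. Gli3, which did not pass the test, had the highest ratio of the 7 (1.12, with 39 CpG) and Cdon the lowest (0.20, with 3 CpG), while Ihh had 0.77 with 30 CpG. Ratios above the median were found in Hhip and Gli2, which rose, in Ptch1, which fell, and in Smo and Gli3, which did not pass. The Ptch1 value is that of the internal start. Any relation of CpG content to the genotype differences was not tested. The GLI motif TGGGTGGTC was searched on both strands and had 0 matches in the 7 windows, as in nearly all promoters (83 of 32851, or 0.253%, held it). The Runt motif TGTGGT had 1 match, in the Gli3 window, and was held by 16.8% of all promoters. The DNA methylation of these windows was not analysed here.

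The ligand was described first. Ihh (ENSMUSG00000006538, chromosome 1, 74945315 to 74951672, GRCm38, minus strand) was counted 2, 1 and 2 times in replicates 1, 2 and 3 of WT and 0, 2 and 0 times in those labelled TCKO. All 6 libraries were at or under 3 counts, so a difference was not detectable at this depth and no fold is given. The other ligands were as low, with 0 counts of Shh in every library and at most 1 count of Dhh. None of the 3 ligand genes was therefore detected above 3 counts in any library of either genotype. Genes of ligand release were present. Of Hhat, Disp1, Scube1 and Scube3, 1 passed the test, lower in TCKO, beside 8.63% lower among all tested genes. This was Scube3, which encodes a secreted protein of the SCUBE family that helps ligand leave the cell. Scube3 was counted 184, 246 and 364 times in WT and 54, 40 and 115 times in TCKO. It fell with a log2 fold change of -1.91 with an SE of 0.389 (adjusted p = 0.0142, edgeR), and its genotypes did not overlap. Its adjusted p was 0.0634 without TCKO replicate 1 and 0.053 without TCKO replicate 2. Scube3 shared 198 bp of exon with AC126937.2 on the opposite strand. That gene had 236 counts in all libraries together against 1003 for Scube3. Scube2 had at most 5 counts and was not tested.

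Hhip showed the largest difference among the members. The gene (ENSMUSG00000064325, chromosome 8, 79965851 to 80058006, minus strand), whose protein binds and holds back Hedgehog ligands, was counted 9, 13 and 22 times in WT and 124, 96 and 266 times in TCKO. This corresponded to 1.09, 1.297 and 2.67 CPM in WT and 14.15, 11.9 and 29.8 CPM in TCKO, with means of 1.69 ± 0.857 and 18.6 ± 9.76 CPM (SD, n = 3). Every TCKO library was above every WT library, and replicate 3 was the highest of its genotype in both. Hhip rose 11.1-fold, a log2 fold change of 3.48 with an SE of 0.468 (adjusted p = 0.00256, edgeR), with a 95% interval from 2.39 to 4.56. Taken separately, replicates 1 and 2 gave a log2 difference of 3.45 and replicate 3 of 3.48. Hhip passed in all 16 alternative fits, with log2 fold changes from 2.96 to 3.95, the lowest without TCKO replicate 3. A non-coding gene on the opposite strand, Gm27820, overlapped it by 175 bp and had 0 counts.

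Ptch1, the receptor, moved the other way. The gene (ENSMUSG00000021466, chromosome 13, 63508328 to 63573598, minus strand) was counted 159, 158 and 180 times in WT and 118, 98 and 116 times in TCKO, or 19.25, 15.8 and 21.8 CPM against 13.5, 12.2 and 13.01 CPM. All 3 TCKO libraries were lower than the lowest WT library, which was replicate 2, and they were closer to each other than the WT libraries were. The means were 18.95 ± 3.04 and 12.9 ± 0.653 CPM (SD, n = 3). Ptch1 fell 1.47-fold, a log2 fold change of -0.55 with an SE of 0.147 (adjusted p = 0.0376, edgeR) with a 95% interval from -0.89 to -0.21. The call rested on every library but WT replicate 2: the adjusted p was 0.034 without that library but 0.123 without WT replicate 1, 0.0649 without WT replicate 3, and 0.0932, 0.125 and 0.0557 without TCKO replicates 1, 2 and 3. The log2 fold change stayed between -0.67 and -0.43 in the 16 alternatives, 9 of which it passed.

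The balance of these transcripts was also computed within each library, per kilobase of summed exon length (RPKM). Hhip RNA was 0.0885, 0.129 and 0.191 times the level of Ptch1 RNA in WT and 1.64, 1.53 and 3.58 times that level in TCKO. Thus Ptch1 exceeded Hhip in all WT libraries and Hhip exceeded Ptch1 in all TCKO libraries. The exact permutation test (two-sided) gave p = 0.1, the smallest that 3 libraries against 3 allow. Because Hhip was higher and Ptch1 lower in every TCKO library, this outcome was fixed by the values above and adds no support.

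Smo, which carries the signal across the membrane, had the highest mean RNA level per length of the members in both genotypes, although Boc exceeded it in WT replicate 3 (28.3 against 26.2 RPKM). The gene (ENSMUSG00000001761, chromosome 6, 29735503 to 29761365, plus strand) had 201.0, 188.7 and 147.3 CPM in WT and 165.4, 167.2 and 146.9 CPM in TCKO. The genotypes overlapped, and replicate 3 was the lowest library in both. Smo did not pass the test, with a log2 fold change of -0.16 with an SE of 0.122 (adjusted p = 0.403, edgeR) and a 95% interval from -0.45 to 0.12. Without WT replicate 3 its value was -0.28 with an adjusted p of 0.0471 (edgeR).

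The co-receptors Boc and Cdon were both lower on average in TCKO, and neither passed in the edgeR fit over all 6 libraries with low counts filtered and no block. Boc (ENSMUSG00000022687, chromosome 16, 44485049 to 44558897, minus strand) had 115.7, 111.5 and 125.8 CPM in WT and 68.4, 65.1 and 109.3 CPM in TCKO. The genotypes did not overlap, but TCKO replicate 3 was much nearer to WT than the other TCKO libraries were. The log2 fold change was -0.54 with an SE of 0.188 (adjusted p = 0.088, edgeR) with a 95% interval from -0.97 to -0.10. With the replicate number as a block it was -0.57 with an adjusted p of 0.0175 (edgeR), or 0.138 with that block once replicates 1 and 2 were summed. Without TCKO replicate 3 it was -0.81 with an adjusted p of 0.000687 (edgeR), where TCKO held only the close pair of replicates 1 and 2. The log2 difference was -0.77 over replicates 1 and 2 and -0.20 in replicate 3, and DESeq2 gave an adjusted p of 0.0389.

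Cdon (ENSMUSG00000038119, chromosome 9, 35421128 to 35507652, plus strand) had 124.2, 122.0 and 86.9 CPM in WT and 101.4, 94.0 and 58.3 CPM in TCKO. The genotypes overlapped because WT replicate 3 was below 2 TCKO libraries, while within each replicate number TCKO was the lower. The log2 fold change was -0.40 with an SE of 0.217 (adjusted p = 0.255, edgeR) with a 95% interval from -0.90 to 0.11, and with the replicate block it was -0.41 with an adjusted p of 0.0123 (edgeR). Once replicates 1 and 2 were summed, the adjusted p of Cdon with that block was 0.0814 (edgeR). Gas1, the gene of the other co-receptor, had 25.1, 26.2 and 24.85 CPM in WT and 52.3, 58.9 and 29.4 CPM in TCKO. Every TCKO library was higher, TCKO replicate 3 by the least. Gas1 rose with a log2 fold change of 0.88 with an SE of 0.231 (adjusted p = 0.0359, edgeR), which was 1.12 over replicates 1 and 2 and 0.24 in replicate 3. It kept its call without TCKO replicate 3 (adjusted p = 0.000239) and lost it without any of the other 5 libraries, with adjusted p from 0.0683 to 0.118. The fit without TCKO replicate 3 left only the close pair of replicates 1 and 2 in TCKO, so it does not show a stable call.

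Gas1 made up 16.7%, 17.8% and 17.5% of the summed RPKM of Gas1, Boc and Cdon in WT and 38.25%, 42.6% and 23.6% in TCKO. The sum itself was 50.6, 49.7 and 47.9 RPKM in WT and 46.2, 46.7 and 42.0 RPKM in TCKO. For both measures the genotypes did not overlap, and the exact permutation test (two-sided) gave its smallest possible p of 0.1. Because Gas1 was higher and the sum lower in every TCKO library, the outcome for the share was fixed by those values. Gas1 overlapped a non-coding gene on the opposite strand, Gm48488, which had 36 counts in all libraries together. Lrp2, which encodes megalin, a large endocytic receptor that can take up Hedgehog ligand, was counted 52, 80 and 41 times in WT and 412, 376 and 670 times in TCKO. It rose 8.69-fold, a log2 fold change of 3.12 with an SE of 0.249 (adjusted p = 0.000284, edgeR), and passed in all 16 alternatives.

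Gli2 was the 1 GLI gene that passed the test. The gene (ENSMUSG00000048402, chromosome 1, 118834132 to 119053619, minus strand) was counted 119, 145 and 102 times in WT and 152, 156 and 223 times in TCKO, or 14.4, 14.5 and 12.4 CPM against 17.35, 19.4 and 25.0 CPM. The TCKO libraries were all above the WT libraries, and replicate 3 was the lowest in WT and the highest in TCKO. The means were 13.75 ± 1.20 and 20.6 ± 3.97 CPM (SD, n = 3). Gli2 rose 1.496-fold, a log2 fold change of 0.58 with an SE of 0.161 (adjusted p = 0.0433, edgeR) with a 95% interval from 0.21 to 0.96. The log2 difference was 0.35 over replicates 1 and 2 and 1.02 in replicate 3. The adjusted p was 0.049 without TCKO replicate 1, 0.113, 0.11 and 0.0806 without WT replicates 1, 2 and 3, and 0.0957 and 0.0621 without TCKO replicates 2 and 3.

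Gli3 (ENSMUSG00000021318, chromosome 13, 15463235 to 15730026, plus strand) had 56.8, 52.5 and 56.7 CPM in WT and 61.3, 50.5 and 59.7 CPM in TCKO. The genotypes overlapped, and replicate 2 was the lowest library in both. The log2 fold change was 0.05 with an SE of 0.094 (adjusted p = 0.769, edgeR) with a 95% interval from -0.17 to 0.27, the narrowest among the tested members. Gli3 overlapped Gm6556 on the opposite strand by 188 bp, and that gene had 60 counts in all libraries together against 2938 for Gli3.

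Gli1 (ENSMUSG00000025407, chromosome 10, 127329882 to 127341974, minus strand) was counted 17, 9 and 25 times in WT and 6, 2 and 10 times in TCKO, too few for the test over all genes. Within each replicate number TCKO held fewer counts, but TCKO replicate 3, with 1.12 CPM, was above WT replicate 2, with 0.898 CPM. When the filter on low counts was left out, the log2 fold change was -1.48 with an SE of 0.524 (adjusted p = 0.0763, edgeR), and the log2 difference was -1.66 over replicates 1 and 2 and -1.43 in replicate 3. Gli1 therefore did not pass under that setting, and the exact permutation test (two-sided) on its RPKM gave p = 0.2. Gli1 shared 62 bp of exon with Arhgap9 on the opposite strand, which had 65 counts in all libraries together against 69 for Gli1, so its counts are less certain than those of the other members.

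**Figure D2:**
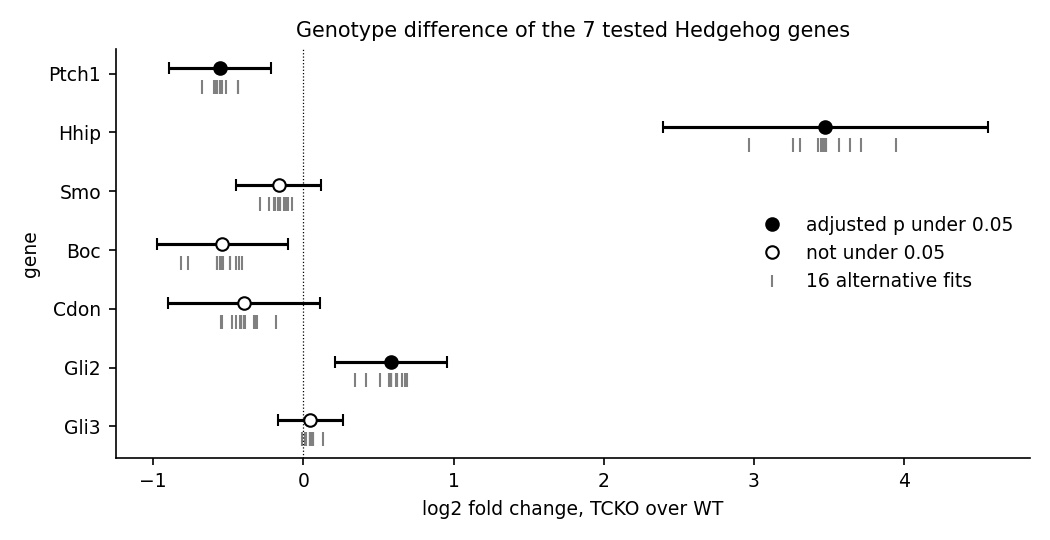
Log2 fold change of TCKO over WT (horizontal axis) for the 7 tested Hedgehog genes (vertical axis), where circles with bars give the estimate and its 95% interval, filled where the adjusted p was under 0.05, and grey ticks below them give the 16 alternative fits. Hhip stands at 3.48 with alternatives from 2.96 to 3.95, Ptch1 at -0.55 and Gli2 at 0.58 with intervals that leave out 0, and the Gli3 interval runs from -0.17 to 0.27. The Boc interval, from -0.97 to -0.10, also leaves out 0, although Boc did not pass after adjustment.

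The share of Gli2 in the summed RPKM of Gli1, Gli2 and Gli3 was 24.9%, 27.1% and 21.6% in WT and 27.9%, 34.7% and 36.1% in TCKO. The values did not overlap, and the exact permutation test (two-sided) gave p = 0.1, the smallest possible. The share is built from the Gli2 values above, which were higher in every TCKO library, so it adds no separate support. Gli3 nevertheless held the largest share in every library, from 61.7% to 71.1%.

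Levels between genes were compared in RPKM. In WT the order was Smo (31.8 ± 5.01), Boc (26.4 ± 1.66), Cdon (14.4 ± 2.71), Gli3 (5.77 ± 0.257), Gli2 (2.00 ± 0.174), Ptch1 (1.34 ± 0.214), Gli1 (0.400 ± 0.214), Hhip (0.186 ± 0.0944) and Ihh (0.0639 ± 0.0270) (SD, n = 3). The ranges of neighbours in this order overlapped for Smo and Boc and for Gli1 and Hhip. In TCKO the order was Smo (28.4 ± 1.99), Boc (18.2 ± 5.53), Cdon (10.96 ± 2.98), Gli3 (5.96 ± 0.609), Gli2 (3.00 ± 0.578), Hhip (2.05 ± 1.08), Ptch1 (0.909 ± 0.0460), Gli1 (0.137 ± 0.0874) and Ihh (0.0272 ± 0.0471). Hhip was thus 8th of the 9 genes in WT and 6th in TCKO, above Ptch1, and its range there overlapped that of Gli2. The ranges of Gli1 and Ihh overlapped as well.

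**Figure D3:**
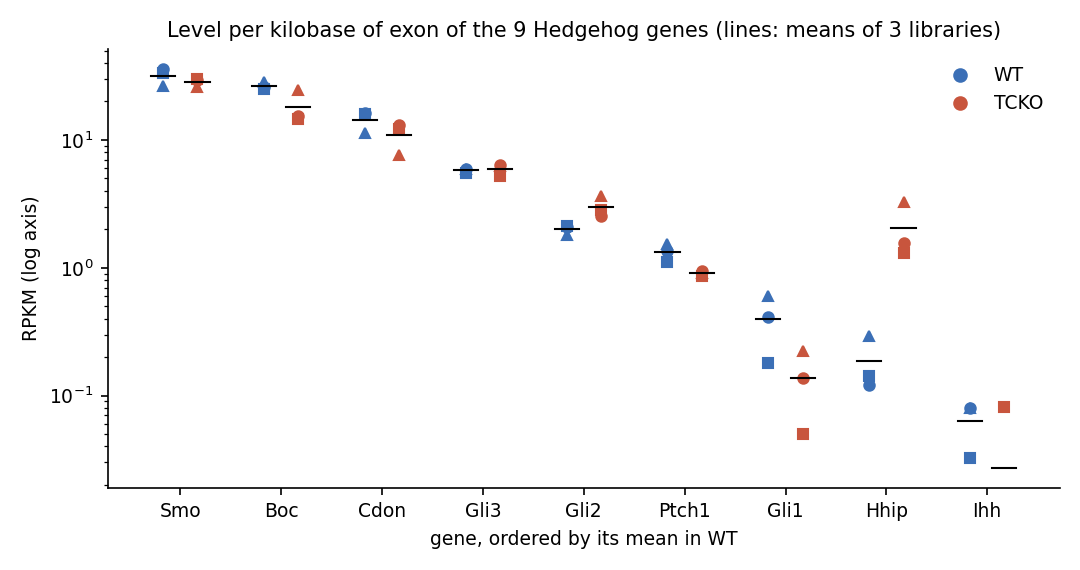
Level of each Hedgehog gene in RPKM (vertical log axis), with the genes ordered by their WT mean, where points are the 3 WT and 3 TCKO libraries with the replicate shapes of the plot of CPM, and lines are means. The genes run from 31.8 RPKM for Smo to 0.0639 RPKM for Ihh in WT, and Hhip moves from 0.186 to 2.05 RPKM. The 2 TCKO libraries with 0 counts of Ihh cannot be drawn on a log axis.

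Genes whose level followed a member most closely were found by the Pearson correlation of log2 CPM over the 6 libraries, among tested genes with a mean of at least 100 counts. For Ptch1 they were Ercc6l2 (r = 0.986), Gm3150 (0.986) and Golga2 (0.985), and 186 of 9261 genes had an r over 0.9. For Hhip they were Flrt2 (r = 0.9999), Itgb1 (0.9995) and Prdx6 (0.9995), and 843 of 9262 genes had an r over 0.9. These libraries fall into the genotypes and into close pairs within them, so such values describe 6 libraries and many genes share them.

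The rest of the pathway was read from lists of 60 other genes, of which 52 were tested. In all, 5 rose and 7 fell in the libraries labelled TCKO, beside 9.07% higher and 8.63% lower among all tested genes, and 40 did not pass. Their median log2 fold change was -0.01, and the genotypes did not overlap for 24 of the 52, beside 38.3% of all tested genes. The count of 5 higher was thus close to the background share and that of 7 lower somewhat above it, and neither difference was tested.

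Genes between SMO and the GLI proteins moved little. All 19 were tested, and their log2 fold changes ran from -0.35 to 0.35 around a median of 0.03. In all, 3 passed, 2 higher and 1 lower, beside 9.07% higher and 8.63% lower among all tested genes. Sufu, which encodes an inhibitor that binds GLI proteins, had 48.3, 47.7 and 48.6 CPM in WT and 57.8, 54.7 and 59.3 CPM in TCKO. Each TCKO library was above each WT library, and Sufu rose 1.19-fold (log2 fold change 0.25 ± 0.071 SE, adjusted p = 0.047, edgeR). Its call was lost without any 1 library, with adjusted p from 0.0537 without WT replicate 3 to 0.156 without WT replicate 2, and also with DESeq2 (0.131) and with no filter (0.15). Dyrk2, which encodes a kinase that acts on GLI proteins, rose with a log2 fold change of 0.35 with an SE of 0.081 (adjusted p = 0.0239, edgeR). It passed in 10 of the 16 alternatives, with adjusted p up to 0.233 (edgeR), and lost its call without replicate 1 or 2 of either genotype. Evc, whose protein binds SMO at the cilium, fell with a log2 fold change of -0.35 with an SE of 0.1 (adjusted p = 0.0492, edgeR), and with the replicate block its adjusted p was 0.0559. When single libraries were left out, Evc kept its call without WT replicate 3 (0.0228), and the other 5 fits gave from 0.0551 to 0.181. The fit without WT replicate 3 left only the close pair of replicates 1 and 2 in WT. DESeq2 gave Evc an adjusted p of 0.104.

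All 18 genes of the primary cilium were tested, and 2 passed, both lower, beside 8.63% lower among all tested genes. Ift172, which encodes part of the intraflagellar transport machinery, fell with a log2 fold change of -0.35 with an SE of 0.086 (adjusted p = 0.0277, edgeR). Arl13b, a ciliary membrane GTPase gene, fell by the same -0.35 with an SE of 0.087 (adjusted p = 0.0294, edgeR). Both kept their calls without WT replicate 3 or TCKO replicate 3 and lost them without any of the other 4 libraries, where the adjusted p ran from 0.0929 to 0.115 for Ift172 and from 0.103 to 0.117 for Arl13b. DESeq2 gave adjusted p of 0.0584 and 0.0831. The median of the cilium list was -0.11.

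Of 14 genes known as Hedgehog targets in some tissue, 9 were tested, 1 rose and 3 fell, beside 9.07% higher and 8.63% lower among all tested genes. Osr1, a transcription factor gene of lateral plate mesoderm, had 12.35, 11.6 and 13.3 CPM in WT and 35.0, 35.2 and 47.1 CPM in TCKO. It rose with a log2 fold change of 1.66 with an SE of 0.146 (adjusted p = 0.000455, edgeR) and passed in all 16 alternatives. Ccnd1, the cyclin D1 gene of the cell cycle, had 794.8, 768.6 and 438.5 CPM in WT and 159.2, 151.4 and 202.2 CPM in TCKO. No TCKO library reached the lowest WT library, replicate 3, and Ccnd1 fell with a log2 fold change of -1.96 with an SE of 0.231 (adjusted p = 0.00151, edgeR). It shared 1100 bp of exon with LTO1 on the opposite strand, which had 1414 counts in all libraries together against 22299 for Ccnd1.

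Foxc2, a forkhead factor gene of mesenchyme, had 15.3, 13.5 and 20.6 CPM in WT and 5.37, 5.35 and 11.2 CPM in TCKO. Replicate 3 was the highest in both genotypes, without overlap between them. Foxc2 fell with a log2 fold change of -1.16 with an SE of 0.310 (adjusted p = 0.038, edgeR). It kept that call without TCKO replicate 3 (adjusted p = 0.00285), where TCKO held only the close pair of replicates 1 and 2. It lost the call without any of the other 5 libraries, with adjusted p from 0.0747 to 0.125. Pax9, a factor gene of the sclerotome, was counted 25, 21 and 11 times in WT and only 2, 2 and 4 times in TCKO. It fell with a log2 fold change of -2.74 with an SE of 0.485 (adjusted p = 0.008, edgeR), which rests on at most 4 counts in each TCKO library. Pax9 shared 189 bp of exon with Slc25a21 on the opposite strand. That gene had 9 counts in all libraries together against 65 for Pax9. Foxf1, Foxf2 and Ccnd2 did not pass (adjusted p = 0.0577, 0.168 and 0.0623, edgeR), but did with the replicate block (0.0344, 0.0344 and 0.0361). They did not pass with that block once replicates 1 and 2 were summed. Foxl1, Mycn, Pthlh and Nkx3-2 were among the listed targets with too few counts to be tested.

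**Figure D4:**
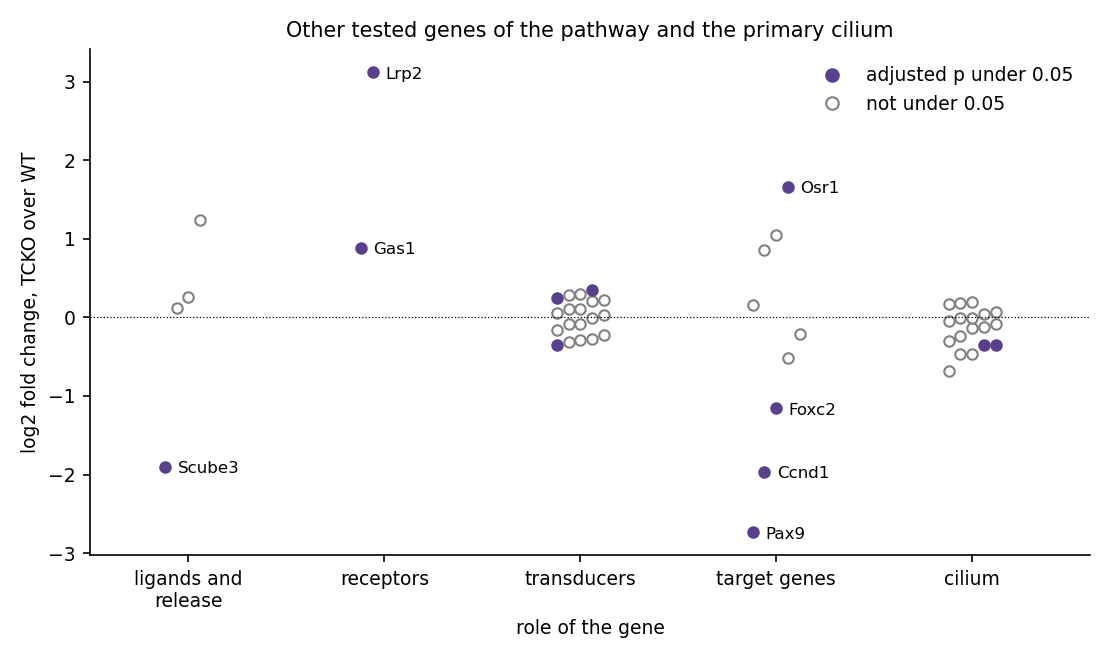
Log2 fold change of TCKO over WT (vertical axis) for the tested genes of each list (horizontal axis: ligands and release, receptors, transducers, target genes, cilium), where each circle is a gene, filled where the adjusted p was under 0.05, and those filled beyond 0.5 on either side are named. Transducers lie between -0.35 and 0.35, while Lrp2 (3.12), Osr1 (1.66) and Gas1 (0.88) lie above and Pax9 (-2.74), Ccnd1 (-1.96), Scube3 (-1.91) and Foxc2 (-1.16) below.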

How the data were processed

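RNA of 3 WT and 3 TCKO libraries was analysed, grouped by the sample titles. Per the labels and the methods of the study, the authors used poly(A) RNA and a directional library kit, aligned the reads to GRCm38 (Ensembl release 99) with STAR 2.7.0e and counted them with featureCounts 2.0.0, and the submitters' processing notes also name CASAVA and DESeq2. The deposited values are raw counts per gene with no normalization, beside exon coordinates and a gene length summed over exons. The strand setting of the counting was not given in the sources used here, so genes with overlapping exons are less certain. No column of values was left unassigned (0 columns). Symbols were added by identifier for 55144 of 55471 genes (99.4%).

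Genes were kept by filterByExpr (at least 10 counts at the median library, 1.17 CPM, in 3 libraries), which left 13826 genes with 99.7% to 99.8% of the counts. Counts were scaled by TMM factors and tested with edgeR 4.0.16 (quasi-likelihood test, R 4.3.3) without covariates. A gene passed at a Benjamini-Hochberg adjusted p under 0.05 over all tested genes. RPKM is TMM-scaled CPM per kilobase of the deposited length. Totals of 8019999 to 10177214 counts per library set the precision, and the limit of 3 counts covers counting error only, as duplicate reads of a molecule cannot be told apart. The labels do not say whether the libraries came from separate animals, so p-values measure the spread between these samples, which may be technical.

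Deviations from the group means correlated across genes at 0.204, 0.214 and 0.347 between same-numbered libraries, all over 0.1. The replicate number was therefore used as a block, as a reading of the data and not of the labels. Replicates 1 and 2 correlated as well with each other across genotypes (0.225 and 0.188). These values set replicate 3 apart from replicates 1 and 2 but do not pair replicates 1 and 2 by number. The 16 alternatives were RLE or upper-quartile factors, no filter, a mean of at least 50 counts, DESeq2 1.42.0, the DESeq2 recipe of the study (RPKM over 0.24), the replicate number as a block, replicates 1 and 2 summed with and without that block, replicates 1 and 2 only, and fits without each of the 6 libraries. The study also required a fold change over 2, which was not applied to that recipe here. Under it the log2 fold change was 3.475 for Hhip, but -0.553 for Ptch1, 0.58 for Gli2 and -0.542 for Boc, all short of 2-fold.

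The Hedgehog genes and all lists were chosen with earlier results of these data known. Named were all 9 members, the 10 listed pathway or cilium genes of largest fold change that passed, Shh, Dhh, Sufu and Gas1, the Tet genes and, for tested members among Gli1, Ptch1, Hhip and Ihh, the 3 genes of most similar pattern. Dyrk2, the remaining ligand-release genes, the untested targets, Foxf1, Foxf2 and Ccnd2 were named after their values were seen. A listed gene that the rule would name is not reported here. Promoters came from RefSeq (GRCm38.p6). Markers of endothelial (at most 2.74 CPM summed), epithelial (at most 1.24), muscle (7.29 to 24.5 CPM in WT, 35.5 to 79.2 in TCKO) and glial or neuronal cells (76.4 to 99.4 in WT, 75.9 to 85.2 in TCKO) were also summed.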

Additional observations from a re-analysis of the deposited data

How the results depend on the processing

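Of the Hedgehog genes, 3 passed with all libraries and no covariate. With the replicate block 5 passed (Boc and Cdon besides), with replicates 1 and 2 only 6, and with replicates 1 and 2 summed 1, Hhip, both without a block and with the replicate block. Leaving out each library in turn gave from 1 to 2. Of the other pathway genes 12 passed. With replicates 1 and 2 summed 2 passed, with the block added to the sums 5, with replicates 1 and 2 only 28, and with the replicate block 14, while leaving out each library in turn gave from 4 to 14. The other normalizations, filters and DESeq2 gave from 3 to 4 members and from 9 to 14 other genes. The log2 fold change of Gli3 ran from -0.006 to 0.129 when libraries were left out, and its sign changed once, without TCKO replicate 1. Hhat (from -0.002 to 0.187) and Disp1 (from -0.013 to 0.404), which passed in none of the alternatives, also changed sign. The fold changes of the other named members, pathway and cilium genes kept their direction. Besides Boc, Cdon, Evc, Foxf1, Foxf2 and Ccnd2, the replicate block changed no call among them. The sums with replicates 1 and 2 merged leave 2 samples against 2, so fewer calls there also reflect fewer samples. In fits that left out a library, 5 libraries remained. Without replicate 3 of a genotype, the spread in that genotype was that of the close pair of replicates 1 and 2. Fits on replicates 1 and 2 only leave out the more distant libraries, and their spread is that of close pairs. At this depth Ihh, Shh and Dhh could not be compared between the genotypes.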

Other observations

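Neighbours of the 3 Hedgehog genes that passed the test were read after their values were seen, as tested genes within 500 kb. Around Hhip, 1 of 5 neighbours passed: Otud4 rose with a log2 fold change of 0.55 with an SE of 0.084 (adjusted p = 0.00468, edgeR), and its end lay 288127 bp from Hhip. The nearest tested neighbour of Hhip, Gm5909, lay 52800 bp away and had a log2 fold change of 0.22 (adjusted p = 0.414, edgeR). Around Ptch1, 2 of 4 passed: 2010111I01Rik fell with a log2 fold change of -1.06 with an SE of 0.089 (adjusted p = 0.000355, edgeR) and Ercc6l2 with one of -0.33 ± 0.090 (adjusted p = 0.0397, edgeR). Ercc6l2 was also the gene whose level followed Ptch1 most closely over the 6 libraries, and it lay 241642 bp away. Fancc, 11050 bp from Ptch1, did not pass (0.09, adjusted p = 0.859, edgeR). Around Gli2, 1 of 6 passed, Ralb, which rose with a log2 fold change of 0.40 with an SE of 0.084 (adjusted p = 0.0155, edgeR). Among all tested genes, 9.07% were higher and 8.63% lower at the same threshold, and these counts of neighbours are too small to be read against those shares. The share of neighbours that passed was not tested against other genes.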
